A study of Mus musculus with 12 samples.

Results

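The 36 genes described here encode the sensors, transcription factors and main targets of the endoplasmic reticulum (ER) stress response, also called the unfolded protein response. They were chosen by name from knowledge of the pathway, with earlier results of these data known. By branch, 11 were placed in the IRE1/XBP1 branch, 16 in the ATF6 chaperone branch and 8 in the PERK/ATF4 branch, with Creb3l3 (CREBH) on its own. All 36 of 36 were in the deposited table of 12086 genes, and all 36 had a value above 0 in every library. The table gives liver RNA sequencing of wild type male C57BL/6 mice killed fasted at postnatal day 84 (12 weeks). The study set the diet of the offspring against the diet of the dam. In OO, dam and offspring both ate an obesogenic diet with 10% simple carbohydrate and 20% lipid, beside condensed milk, sweetened, that held 55% simple carbohydrate, 8% lipid and 8% protein. In CO, only the offspring ate that diet, after a control-fed dam. In OC, only the dam ate it, and the offspring ate standard chow (7% simple carbohydrate, 3% lipid). In CC, dam and offspring both ate chow. The 35 dams of the study kept their diet from before mating until the pups were weaned at day 21, and litters were cut to 6 pups at day 3. The table held 3 OO, 2 CO, 3 OC and 3 CC libraries, each named by its group and a number counted from 0 (OO.2, CO.1). The numbers name libraries only. The labels tie no animal to a litter, so a p-value measures the spread between these libraries, which may in part be technical.

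When unfolded proteins build up in the ER lumen, 3 sensors in its membrane respond. IRE1 (gene Ern1) cuts a short stretch out of Xbp1 mRNA, which then encodes an active transcription factor for chaperones, protein export and ER-associated degradation (ERAD). ATF6 moves to the Golgi, is cut there and drives chaperone genes such as Hspa5, and PERK (gene Eif2ak3) phosphorylates eIF2α, which lowers general translation while the transcription factor ATF4 is made and switches on amino acid and cell death genes. CREBH is a liver factor of the same membrane-bound kind. Hepatocytes secrete most plasma proteins, and their ER load follows feeding, inflammation and lipid supply.

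Sequences known from these branches are shown first, while the gene groups below were made from knowledge of the pathway and not from sequence. The elements too come from knowledge of this pathway and its genes. The shares of genes with an element are therefore a description and no independent test of the groups. The stretch that IRE1 removes from Xbp1 mRNA, 26 bases in capitals here within 15 bases on each side, was read from the GENCODE M21 transcript. The values in the table count the whole gene, so spliced and unspliced Xbp1 cannot be told apart in them.
Xbp1 cut region: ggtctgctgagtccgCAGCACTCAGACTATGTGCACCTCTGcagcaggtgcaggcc

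ERSE, a promoter element of ER stress genes that is not particular to 1 branch, is CCAAT, then 9 bases of any kind, then CCACG. RefSeq promoters (GRCm38.p6, 250 bases before to 50 after the start) were in the table used here for 31 of the 36 genes, and both strands were searched. ERSE was found in 9 of these 31 genes (29%), against 0.137% of 27025 genes with a promoter. In the ATF6 branch it was found in 7 of 13 genes (53.8%), in the IRE1/XBP1 branch in 2 of 9 (22.2%) and in the PERK/ATF4 branch in 0 of 8. The shorter form ERSE-II (ATTGG, 1 base, CCACG) was found in Dnajb11 and Herpud1, against 0.0444% of all genes. The 9 genes with ERSE, Hsp90b1 with a pair of sites, are given with the fixed letters in capitals, on the strand that holds the element.
Hspa5, chr2:34772025-34772043: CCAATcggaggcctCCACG
Hsp90b1, chr10:86705533-86705551: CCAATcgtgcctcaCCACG
Hsp90b1, chr10:86705638-86705656: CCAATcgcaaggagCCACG
Pdia6, chr12:17266491-17266509: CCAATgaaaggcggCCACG
Calr, chr8:84847075-84847093: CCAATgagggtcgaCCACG
Canx, chr11:50325800-50325818: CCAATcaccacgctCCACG
Creld2, chr15:88819520-88819538: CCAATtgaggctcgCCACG
Syvn1, chr19:6046532-6046550: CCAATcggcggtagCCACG
Derl3, chr10:75893242-75893260: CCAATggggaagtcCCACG
Dnajc3, chr14:118937827-118937845: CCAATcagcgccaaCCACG

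The element bound by ATF4 with C/EBP partners was searched as TGATGNAA, which does not overlap ERSE in its letters. It was found in 4 of the 8 PERK/ATF4 genes (50%) and in Herpud1, 5 of 31 genes in all (16.1%), against 4.51% of all genes. The UPR element core TGACGTGG was found in 0 of 31 genes and in 0.714% of all genes. The Xbp1 promoter window held none of these 4 elements. A match is a string of letters and not a measured site, and a window without one says nothing of the factor. The sites of the PERK/ATF4 genes are given with 6 bases on each side and the fixed letters in capitals.
Chac1, chr2:119351043-119351062: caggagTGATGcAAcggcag
Atf3, chr1:191183430-191183449: acttggTGATGcAAgtgcga
Trib3, chr2:152344033-152344052: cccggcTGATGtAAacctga
Asns, chr6:7693219-7693238: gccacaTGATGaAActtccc

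Chac1 was the only PERK/ATF4 gene past the test below, so its whole window is shown (chr2:119350992-119351291, plus strand, GRCm38.p6), with the element in capitals as it reads on that strand. The element begins 193 bases before the start.
Chac1 promoter: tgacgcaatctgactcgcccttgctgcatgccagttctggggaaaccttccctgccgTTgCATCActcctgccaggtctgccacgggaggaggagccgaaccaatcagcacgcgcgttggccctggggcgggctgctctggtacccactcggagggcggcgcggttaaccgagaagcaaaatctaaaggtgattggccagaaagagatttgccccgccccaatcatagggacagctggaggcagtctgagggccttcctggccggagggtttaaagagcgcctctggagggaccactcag

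The values are scaled counts, close to CPM. Depth recovered from the values lay between 3976158 reads in OO.1 and 7969056 in OC.0, with OO.0 apart at 27837609, and a floor of 3 reads corresponded to values of 0.1 to 0.829, which covers counting error only. Of the 36 genes, 6 had a median value under 10 (Derl3, Atf3, Ddit3, Chac1, Trib3 and Asns), and their lowest count was 1 read. The liver label fitted its markers: 11 of 12 hepatocyte genes were in the table, none at 0 throughout a group, and their summed value lay between 70443 and 88903. Some libraries stood apart. The mean log2 level of the 18 of 27 exocrine pancreas genes in the table, relative to CC, was highest in OC.0 (6.66), CO.1 (6.03) and CC.1 (3.90), and the other 8 libraries lay between -2.12 and 1.29. The same measure for 17 acute phase genes was 3.59 in CO.1, 2.71 in OC.1, 1.2 in CO.0 and 1.1 in OO.1, and the other 7 libraries lay between -0.27 and 0.88. For the 7 of 10 skeletal muscle genes in the table it was 3.1 in OO.0, 1.9 in CC.0, 1.4 in CO.1 and 1.1 in OC.0. The remaining libraries lay between -1.9 and 0.6 for this list. In bulk tissue, fewer cells of a type and less RNA per cell cannot be told apart.

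The first comparison asks how the obesogenic diet bears on the offspring of control-fed dams, CO against CC. On balance the 36 genes were higher in CO, 32 higher and 4 lower, with a median log2 difference of 0.46 against -0.01 for all genes tested. Only Xbp1 passed the test, a limma fit on log2(value + 0.5) over all genes with a Benjamini-Hochberg adjusted p under 0.05, where 1.79% of all genes were called. At an unadjusted p under 0.05 limma gave 12 of the 36 genes, 11 higher and 1 lower, against 16.8% of all genes. In 16 genes the CO and CC libraries did not overlap, 15 higher and 1 lower, and 35% of all genes did not overlap in either direction. The median rested in part on CC.0, the library with the lowest value of all 11 in 20 of the 36 genes. Without CC.0 the median was 0.28, and without CO.1 it was 0.64.

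**Figure D1:**
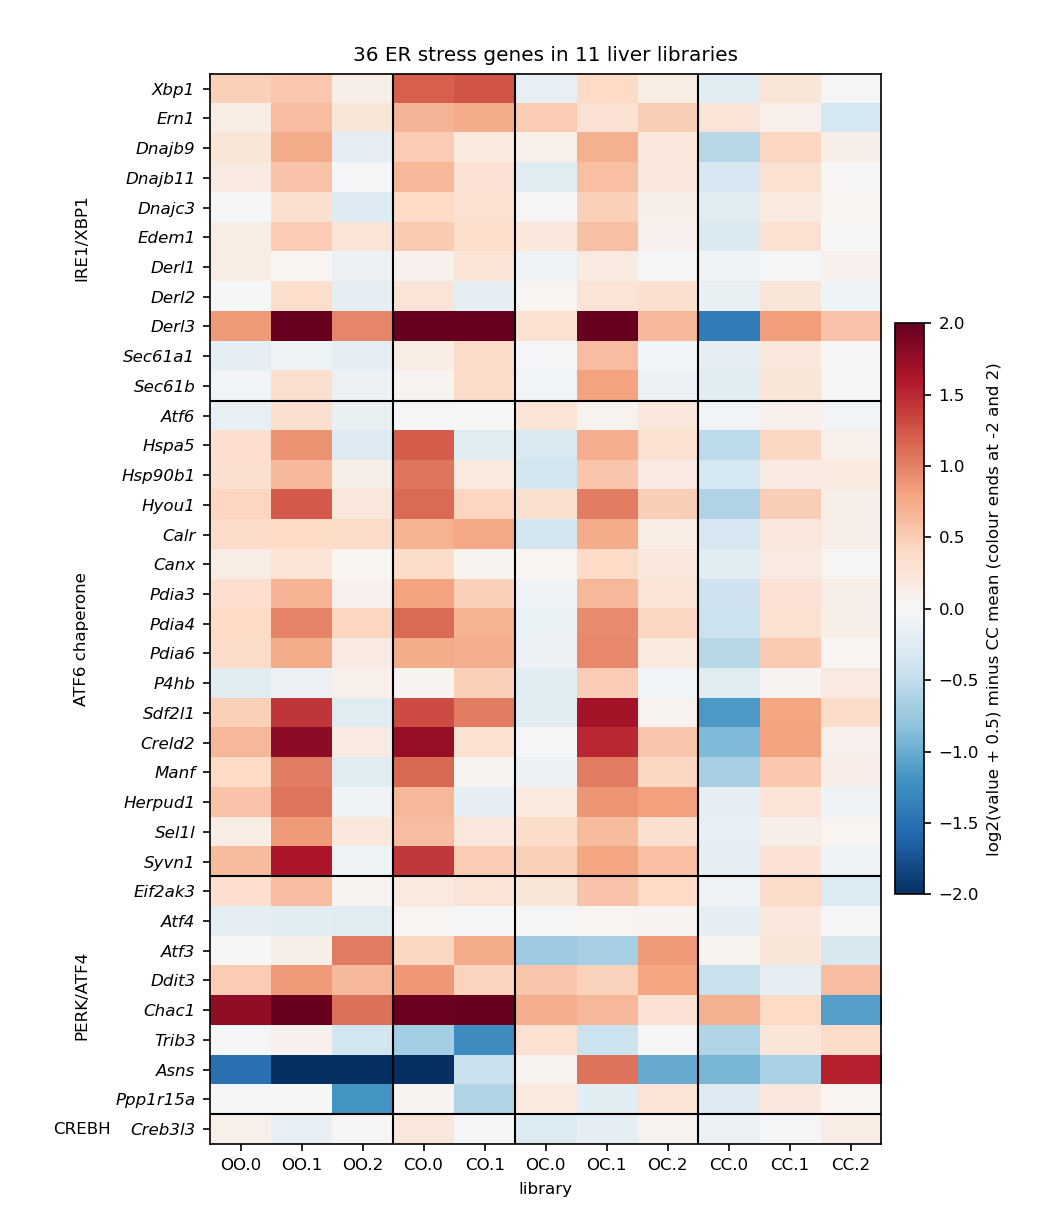
Each cell is the log2(value + 0.5) of 1 of the 36 genes (down the page, by branch) in 1 of the 11 libraries (across, by group), minus the gene's mean over the 3 CC libraries, with colour ends at -2 and 2. Xbp1 is high in both CO libraries, the chaperone genes are low in CC.0 and high in CO.0, OC.1 and OO.1, and Chac1 is higher in the CO and OO libraries than in all of the others.

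In the IRE1/XBP1 branch the transcription factor gene itself moved most clearly. Xbp1 stood at 246, 256 and 189.7 in the OO libraries, 401 and 419 in CO, 157, 233 and 195 in OC and 152, 208 and 171 in CC. Both CO libraries lay above all other 9, and the OO, OC and CC libraries overlapped. Xbp1 rose in CO by 1.22 (log2, SE 0.19) over CC, a fold of 2.33, with an adjusted p of 0.0167 in limma. Its average offspring diet effect, the mean of CO minus CC and OO minus OC, was 0.73 (SE 0.13), with an adjusted p of 0.011. For OO against OC alone, the other part of that average, the difference was 0.25 (SE 0.17).

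Marker lists moved beside the Xbp1 rise. In CO against CC all 17 acute phase genes were higher, with a median of 1.65 and a summed value of 24576 to 73737 in CO and 17054 to 18433 in CC. All 4 of 10 neutrophil genes that were in the table were higher too (levels of 1.05 and 2.21 in CO, -0.34 to 0.26 in CC), as were all 18 pancreas genes (0.78 and 6.03 in CO, -2.12 to 3.90 in CC). The 4 of 9 plasma cell genes in the table were lower (-1.03 and -0.66 in CO, -0.37 to 0.54 in CC). None of these lists had a gene at 0 in any whole group. Limma called 3 acute phase genes, 1 neutrophil gene, 0 pancreas genes and 0 plasma cell genes, against 1.79% of all genes. The groups did not overlap in 14, 4, 0 and 3 genes of these lists in that order, against 35% of all genes. In OC.0, with the highest pancreas level, Xbp1 was at 157, the lowest of its group. In OC.1, with an acute phase level of 2.71, Xbp1 was at 233, the highest of its group. In CO.0 it was at 401, with pancreas and acute phase levels of 0.78 and 1.2, below those of CO.1. The acute phase level of CO.0 still lay above all CC libraries (-0.06 to 0.07), as did its neutrophil level of 1.05. With the pancreas level as a covariate the log2 difference was 1.22 (adjusted p 0.0473, limma). Without CO.1 it was 1.19, with an adjusted p of 0.0884, and the adjusted p was 0.0689 both without CC.0 and without CC.2, so the call depended on these libraries while the size moved little. Macrophage and stellate cell lists moved beside it as well. All 13 macrophage and Kupffer cell genes were higher in CO than in CC, with levels of 0.31 and 0.36 in CO and -0.25 to 0.16 in CC. Limma called 1 of them, against 1.79% of all genes, and in 4 the groups did not overlap, against 35% of all genes. Of 10 stellate cell and matrix genes 9 were higher, with levels of 0.395 and 0.47 in CO and -0.05 to 0.04 in CC. In 6 of them the groups did not overlap, against 35% of all genes, and limma called 0. Neither list had a gene at 0 in any whole group. The part of the acute phase, neutrophil, macrophage and stellate cell signals in the Xbp1 result was not tested.

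Ern1, the gene of the IRE1 sensor, stood at 50.9, 70.2 and 54.6 in OO, 74 and 77.1 in CO, 65.7, 56 and 64.9 in OC and 54.7, 49 and 35.9 in CC. The CO libraries were again the highest, and the OC libraries lay just above those of CC. Its log2 difference in CO against CC was 0.71 (SE 0.18), and the adjusted p of 0.0809 in limma missed the threshold. DESeq2 on the recovered reads called Xbp1, Ern1, Derl3 and Chac1 in this comparison, edgeR and limma's voom only Xbp1, and DESeq2 gave no adjusted p for 1 of the 36.

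Derl3, a derlin that helps export misfolded proteins for ERAD and that is used mainly in secretory cells such as those of the pancreas, stood at 4.17, 16.3 and 4.58 in OO, 13.7 and 29.5 in CO, 2.7, 10.2 and 3.52 in OC and 0.476, 4.11 and 3.32 in CC. OO.1 lay between the CO libraries, OC.1 just below both, and OC.0, with the highest pancreas level, at the low end of OC. Reads behind these values ran from 3 in CC.0 to 135 in CO.1. Its log2 difference in CO against CC was 3.00 (SE 0.75), with an adjusted p of 0.0713 in limma. In CC, CO and OO the library with the highest pancreas level (CC.1, CO.1 and OO.1) also had the highest Derl3 value of its group. In every group Derl3 was highest in the library with the highest acute phase level (CC.1, CO.1, OC.1 and OO.1). With the pancreas level as a covariate the log2 difference was 2.83 (adjusted p 0.155, limma). The part of these signals in the Derl3 values was not tested.

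The other 8 genes of the branch had smaller differences. The co-chaperone genes Dnajb9, Dnajb11 and Dnajc3, the mannosidase-like ERAD gene Edem1, the derlins Derl1 and Derl2 and the translocon subunits Sec61a1 and Sec61b were all higher on average in CO, and none passed the limma test. Dnajc3, an inhibitor of eIF2α kinases that also works as a BiP co-chaperone, stood at 472 and 441 in CO and 305, 409.7 and 366 in CC. Edem1 stood at 275 and 243 in CO and 157, 235 and 189 in CC, and for both genes the groups did not overlap. The branch had a median of 0.35 in CO against CC, with 11 of 11 genes higher, and this median was 0.24 without CC.0 and 0.56 without CC.1.

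**Figure D2:**
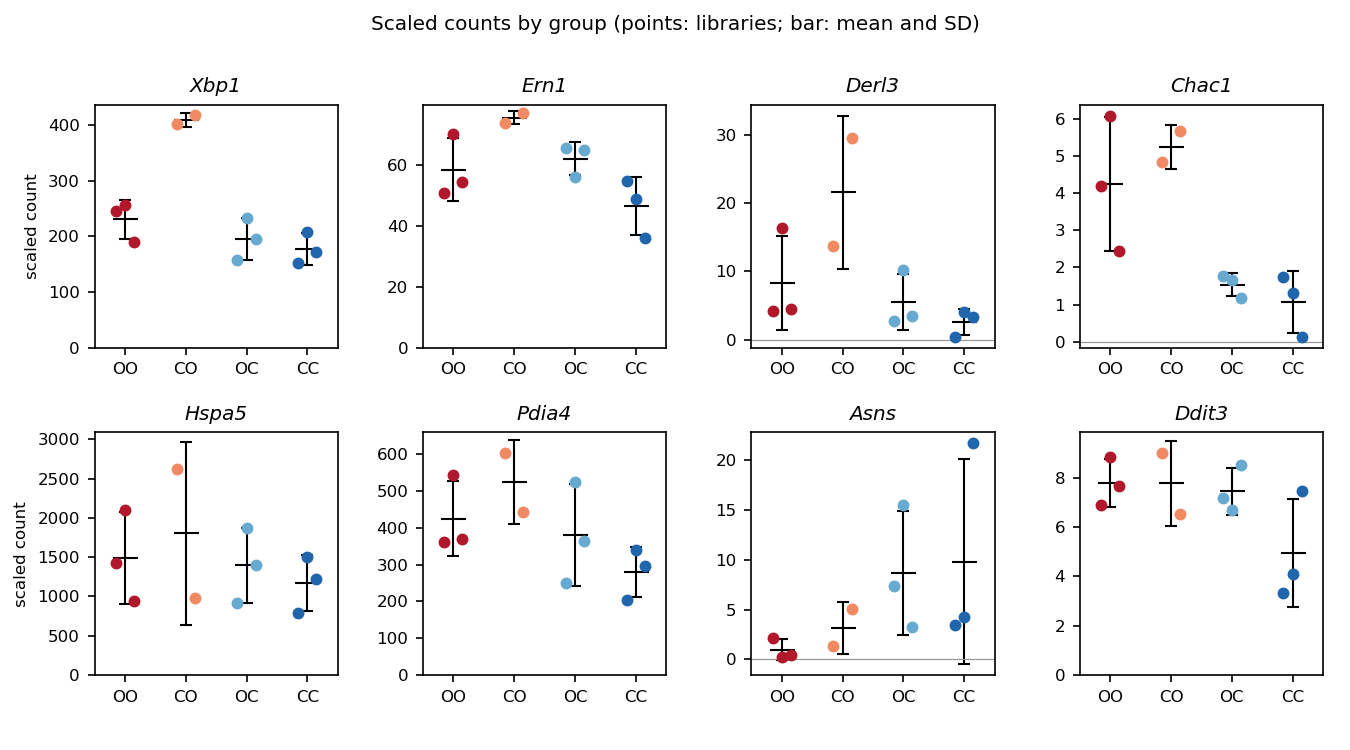
Points are the scaled counts of single libraries in OO, CO, OC and CC, and the bars give the group mean and SD. Both CO points of Xbp1 and Ern1 lie above all CC points, Chac1 is higher in CO and OO than in OC and CC, and Hspa5 spreads widely within each group.

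The ATF6 chaperone branch had the largest median in CO against CC, 0.64, with 15 of 16 genes higher, and none passed the limma test. The median was 0.37 without CO.0 and 0.93 without CO.1. Atf6, the gene of the sensor, differed little between CO and CC. It stood at 97.9, 137 and 98.4 in OO, 107 and 110.5 in CO, 131, 115 and 128 in OC and 106, 118 and 106 in CC. The CO libraries lay within the range of CC, and the log2 difference was -0.01 (SE 0.15). The cutting of ATF6 in the Golgi is not measured by these values.

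Hspa5 encodes BiP, the main ER chaperone and the usual reporter of ER stress. It stood at 1424, 2106 and 945 in OO, 2628 and 975 in CO, 919, 1869 and 1401 in OC and 789, 1503 and 1217 in CC. The 2 CO libraries held the highest value of all 11 and a value below 2 of the 3 CC libraries. The log2 difference was 0.50 with an SE of 0.46 (adjusted p 0.623, limma), so a difference was not detectable over this spread.

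The protein disulfide isomerase gene Pdia4 was steadier. It stood at 361, 543 and 370.3 in OO, 605 and 444 in CO, 251, 526 and 364 in OC and 204, 339 and 298 in CC, and both CO libraries lay above all of CC. Its log2 difference in CO against CC was 0.92 (SE 0.31, adjusted p 0.163 in limma). Calr, the lectin chaperone calreticulin, stood at 955 and 1012 in CO and 465, 693 and 636 in CC, with a log2 difference of 0.74 (SE 0.27, adjusted p 0.199). Pdia3, Pdia6, Hsp90b1 (GRP94), Sdf2l1 and the ERAD ligase genes Sel1l and Syvn1 (HRD1) likewise had CO libraries above all CC libraries, 8 of the 16 in all against 35% of all genes in either direction, with adjusted p-values in limma of 0.238, 0.283, 0.341, 0.382, 0.346 and 0.251 in that order.

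In 6 further genes CO.0 lay above all CC libraries and CO.1 did not, and for P4hb (PDI) it was the other way round. Creld2, a secreted disulfide isomerase, stood at 156 and 57.4 in CO and 24.9, 81.2 and 48.9 in CC. Manf, a secreted ER stress factor, stood at 175 and 81.9 in CO and 49.5, 114 and 86.4 in CC. Herpud1, an ERAD scaffold whose promoter held both ERSE-II and the ATF4 element, stood at 598 and 329 in CO and 334, 452 and 359 in CC. Hyou1, a nucleotide exchange factor for BiP, had a log2 difference of 0.78 (SE 0.36), and Canx (calnexin) and P4hb had 0.22 and 0.27.

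The PERK/ATF4 genes had no common direction. The median of the branch in CO against CC was 0.11, with 5 of 8 genes higher, and it was 0.03 without CC.2, 0.05 without CC.0 and 0.26 without CC.1. Eif2ak3, the PERK gene, stood at 25.3, 30.7 and 20.8 in OO, 22.8 and 23.8 in CO, 23.7, 29.7 and 26.4 in OC and 18.5, 26 and 16.3 in CC. Atf4 stood at 67.8, 66.1 and 65.2 in OO, 79.3 and 75.1 in CO, 74.8, 78.9 and 79.9 in OC and 68.2, 89.4 and 74.5 in CC. For both genes CO lay within CC, and Atf4 was lower in every OO library than in every other library. ATF4 is controlled largely at translation, which these values do not measure.

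Chac1, a glutathione-degrading enzyme gene switched on by ATF4, was the gene of the branch that followed the offspring diet. It stood at 4.21, 6.08 and 2.45 in OO, 4.83 and 5.68 in CO, 1.76, 1.67 and 1.17 in OC and 1.74, 1.31 and 0.138 in CC. All 5 libraries of obesogenic-fed offspring lay above all 6 of control-fed offspring. The reads behind them were 126, 22 and 15 in OO, 29 and 26 in CO, 15, 11 and 8 in OC and 11, 7 and 1 in CC, so that CC.2 lay under the floor. Chac1 rose in the average offspring diet effect by 1.61 (log2, SE 0.33), a fold of 3.05, with an adjusted p of 0.0209 in limma. The differences were 2.06 (SE 0.49, adjusted p 0.0607) in CO against CC and 1.16 (SE 0.44, adjusted p 0.534) in OO against OC. At these low values the size depended on the pseudocount. With 0.1 in place of 0.5 the average was 1.99 and CO against CC 2.65, and with 2 they were 1.03 and 1.28, and the average was called with both. Without CO.1 the average was 1.56, with an adjusted p of 0.0782. Acute phase and pancreas levels in CO and OO, given above, moved beside this rise in CO.1, and with the pancreas level as a covariate it was 1.56 (adjusted p 0.0257, limma). In the average offspring diet effect all 13 macrophage and Kupffer cell genes were higher, 1 of them called, against 3.96% of all genes. Their levels were 0.45 to 0.54 in OO, 0.31 to 0.36 in CO, -0.01 to 0.62 in OC and -0.25 to 0.16 in CC. Of 10 stellate cell and matrix genes 9 were higher, none called, with levels of 0.38 to 0.79 in OO, 0.395 to 0.47 in CO, 0.02 to 0.41 in OC and -0.05 to 0.04 in CC. The level of the 11 hepatocyte genes was -0.44 to -0.17 in OO, -0.16 to -0.14 in CO, -0.28 to 0.06 in OC and -0.02 to 0.02 in CC. The part of the acute phase signal and of these cell type signals in the Chac1 result was not tested.

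Ddit3, the gene of the cell death factor CHOP, stood at 6.91, 8.85 and 7.68 in OO, 9 and 6.55 in CO, 7.17, 6.69 and 8.51 in OC and 3.33, 4.11 and 7.46 in CC. Only CC.0 and CC.1 lay apart, below the other 9 libraries. The log2 differences were 0.65 (SE 0.28) in CO against CC and 0.61 (SE 0.25) in OC against CC, both sharing the CC libraries, with adjusted p-values of 0.276 and 0.923 in limma. Exons of Ddit3 overlap those of Mars on the other strand, so its counts are uncertain where strand was not used.

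Asns and Trib3, both known ATF4 targets, were lower on average in CO than in CC, and neither passed the limma test. Asns, asparagine synthetase, stood at 2.17, 0.276 and 0.49 in OO, 1.33 and 5.02 in CO, 7.4, 15.5 and 3.23 in OC and 3.49, 4.3 and 21.7 in CC. All OO libraries lay below all OC libraries, and OO.1 and OO.2 had 1 and 3 reads. Its average offspring diet effect was -1.93 (SE 0.55, adjusted p 0.0751), which DESeq2 called at 0.0463. Trib3, a pseudokinase that restrains ATF4 and AKT, stood at 4.5 and 2.84 in CO and 4.76, 8.98 and 9.81 in CC, with a log2 difference of -0.97 (SE 0.32, adjusted p 0.154). It was the 1 gene of the 36 that lay wholly lower in CO than in CC. Atf3, a stress-induced transcription factor gene, and Ppp1r15a (GADD34), which brings a phosphatase to eIF2α, had log2 differences of 0.58 and -0.28 in CO against CC, each smaller than 2 SE.

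Creb3l3, the gene of CREBH, stood at 452, 377 and 427 in OO, 494 and 414 in CO, 349, 372 and 442 in OC and 388, 417 and 466 in CC. All 4 groups overlapped, and the log2 difference in CO against CC was 0.10 (SE 0.15).

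The second comparison asks the same of the offspring of obesogenic-fed dams, OO against OC. There the 36 genes showed no common direction: 19 were higher and 17 lower, with a median of 0.01. The limma test called 0 of them (0.165% of all genes), edgeR, DESeq2 and voom also called 0, and at an unadjusted p limma gave Chac1 (higher) and Asns (lower), 2 of 36 against 8.01% of all genes. In 4 genes the groups did not overlap, Chac1 higher and Sec61a1, Atf4 and Asns lower, against 12.7% of all genes. The median was -0.21 without OO.1 and 0.12 without OO.2. Over both kinds of dam together, the average offspring diet effect called Xbp1 and Chac1, 2 of 36 with 3.96% of all genes called. At an unadjusted p it gave 8, against 19.4%, and these were Xbp1, Chac1, Derl3, Asns, Pdia4, Calr, Ern1 and Trib3.

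**Figure D3:**
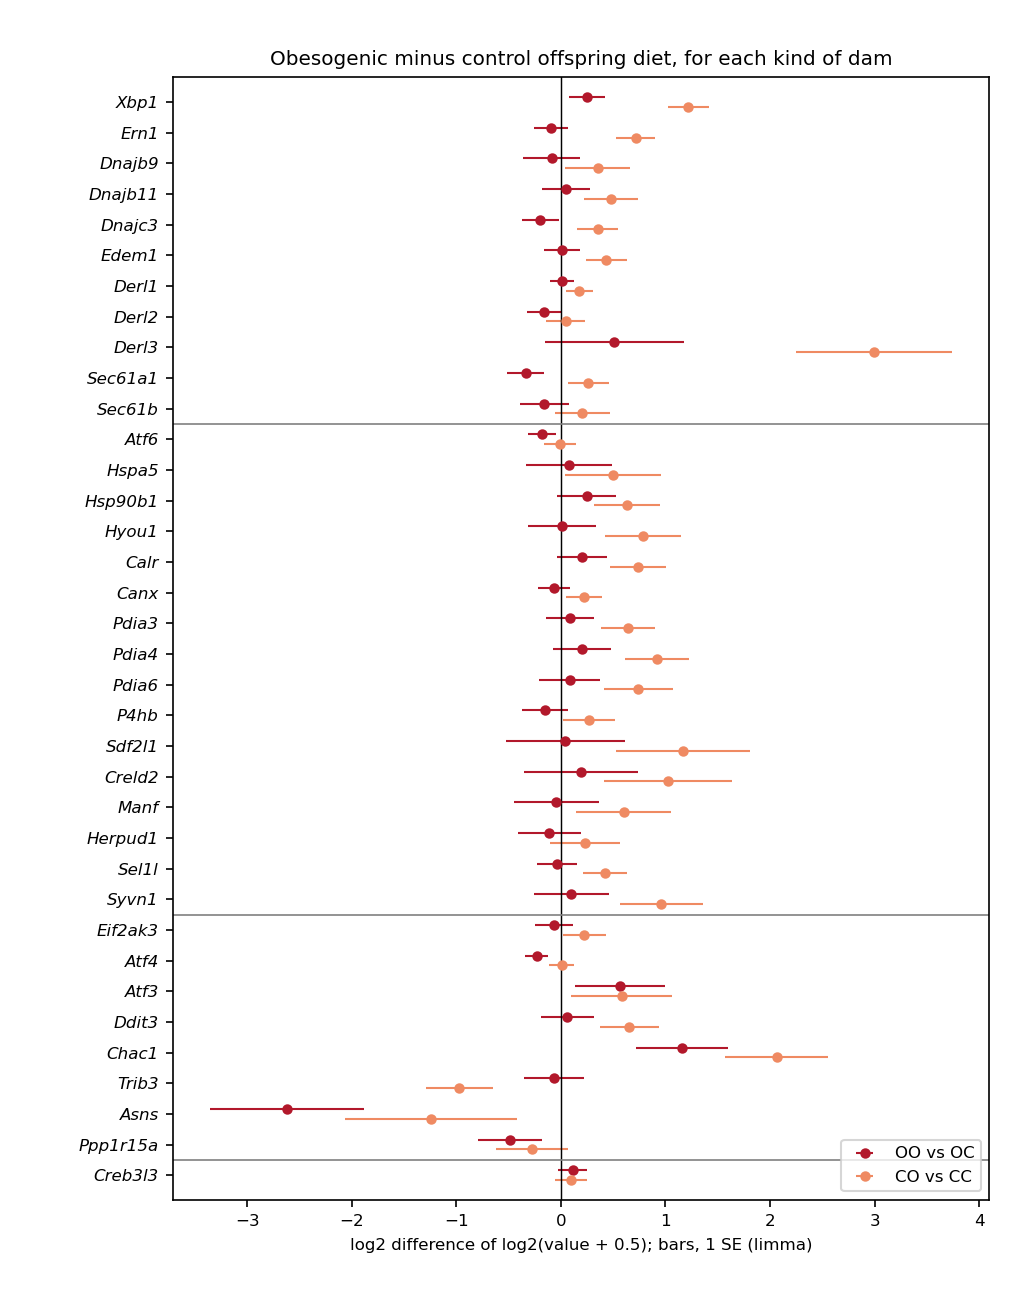
Points give the limma log2 difference between obesogenic-fed and control-fed offspring for each of the 36 genes, OO against OC above CO against CC, with bars of 1 SE. In CO against CC most points of the IRE1/XBP1 and ATF6 branches lie right of 0 (26 of 27), and in OO against OC they lie on both sides (15 of 27 to the right).

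The maternal comparisons gave no calls. In OC against CC, control-fed offspring of obesogenic-fed dams, 33 of 36 genes were higher, with a median of 0.23. The limma test called 0 of 36 and 0 of all 12086 genes (0%), edgeR, DESeq2 and voom called 0 of 36, and at an unadjusted p limma gave 4 (Ern1, Sel1l, Ddit3 and Eif2ak3, all higher) against 5.26% of all genes. The groups did not overlap in Ern1, Sel1l and Syvn1, 3 genes, all higher, against 11.5%. Without CC.0 the median was 0.09. This comparison and CO against CC share the CC libraries.

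In OO against CO, 30 of 36 genes were lower in OO, with a median of -0.20. The limma test called 0 of 36 (0.0414% of all genes), edgeR and voom also called 0, and DESeq2 called Xbp1. At an unadjusted p limma gave 2, Xbp1 (-0.84, SE 0.19, adjusted p 0.705) and Trib3 (0.87, SE 0.32), against 5.92% of all genes. Groups did not overlap in 6 genes, Xbp1, Ern1, Sec61a1, Calr and Atf4 lower and Trib3 higher, against 20% of all genes. Without CO.0 the median was -0.04, and for the ATF6 branch it turned to 0.12, against -0.22 with all libraries.

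The average maternal diet effect called 0 of 36 genes in limma, edgeR, DESeq2 and voom (0.0331% of all genes in limma), and DESeq2 gave no adjusted p for 9 of the 36. At an unadjusted p it gave Xbp1 alone (-0.36, SE 0.13, lower with obesogenic-fed dams), against 6.13%. The interaction asks whether the effect of the offspring diet differed with the diet of the dam. It was negative in 34 of 36 genes, with a median of -0.45 against 0.01 for all genes. This median was -0.30 without CC.0 and -0.65 without OO.1. The interaction was also negative in all 17 acute phase genes (median -1.5), all 18 pancreas genes (-5.85) and all 4 neutrophil genes. The same held for 27 of 33 other ER folding and oxidation genes (-0.14), but for only 4 of 13 genes of eIF2 and its kinases (0.15). The part of such shared signals in the 36 genes was not tested. All 4 tools called 0 of 36 (0.0331% of all genes in limma), and at an unadjusted p limma gave 4, Xbp1, Ern1, Derl3 and Sec61a1, against 4.56%. The values were -0.97 (SE 0.26) for Xbp1, -0.81 (SE 0.25) for Ern1, -2.49 (SE 1.0) for Derl3 and -0.60 (SE 0.26) for Sec61a1, each with an adjusted p of 0.936 in limma. The smaller Xbp1 difference in OO against OC than in CO against CC was thus not called across all genes.

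The 36 genes varied within groups more than the median gene. Their median within-group SD was 0.341 (log2) and that of all genes was 0.224, with 0.426 in the ATF6 branch, 0.422 in the PERK/ATF4 branch and 0.236 in the IRE1/XBP1 branch. The extremes were shared. OO.1 was the highest OO library in 30 of the 36 genes, OC.1 the highest of OC in 26 and CC.1 the highest of CC in 27, and CC.0 was the lowest of CC in 31. In CO, CO.0 was the higher library in 13 of the 16 ATF6 genes and in 5 of the 11 IRE1/XBP1 genes. The mean log2 level of the ATF6 branch relative to CC was 0.33, 0.86 and 0.05 in OO, 0.88 and 0.35 in CO, -0.02, 0.82 and 0.32 in OC and -0.43, 0.35 and 0.09 in CC. CO.1 was level with CC.1, and the ranges of OO, OC and CC overlapped. For the IRE1/XBP1 branch it was 0.18, 0.60 and 0.05 in OO, 0.63 and 0.68 in CO, 0.05, 0.64 and 0.19 in OC and -0.31, 0.28 and 0.03 in CC, and both CO libraries lay above all CC libraries, level with OC.1 and OO.1. The PERK/ATF4 level stayed between -0.23 and 0.21 in all 11 libraries, but it is a mean over genes that differed in both directions. In CO against CC, 5 of its 8 genes were higher (Chac1 by 2.06) and 3 lower (Asns by 1.24).

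**Figure D4:**
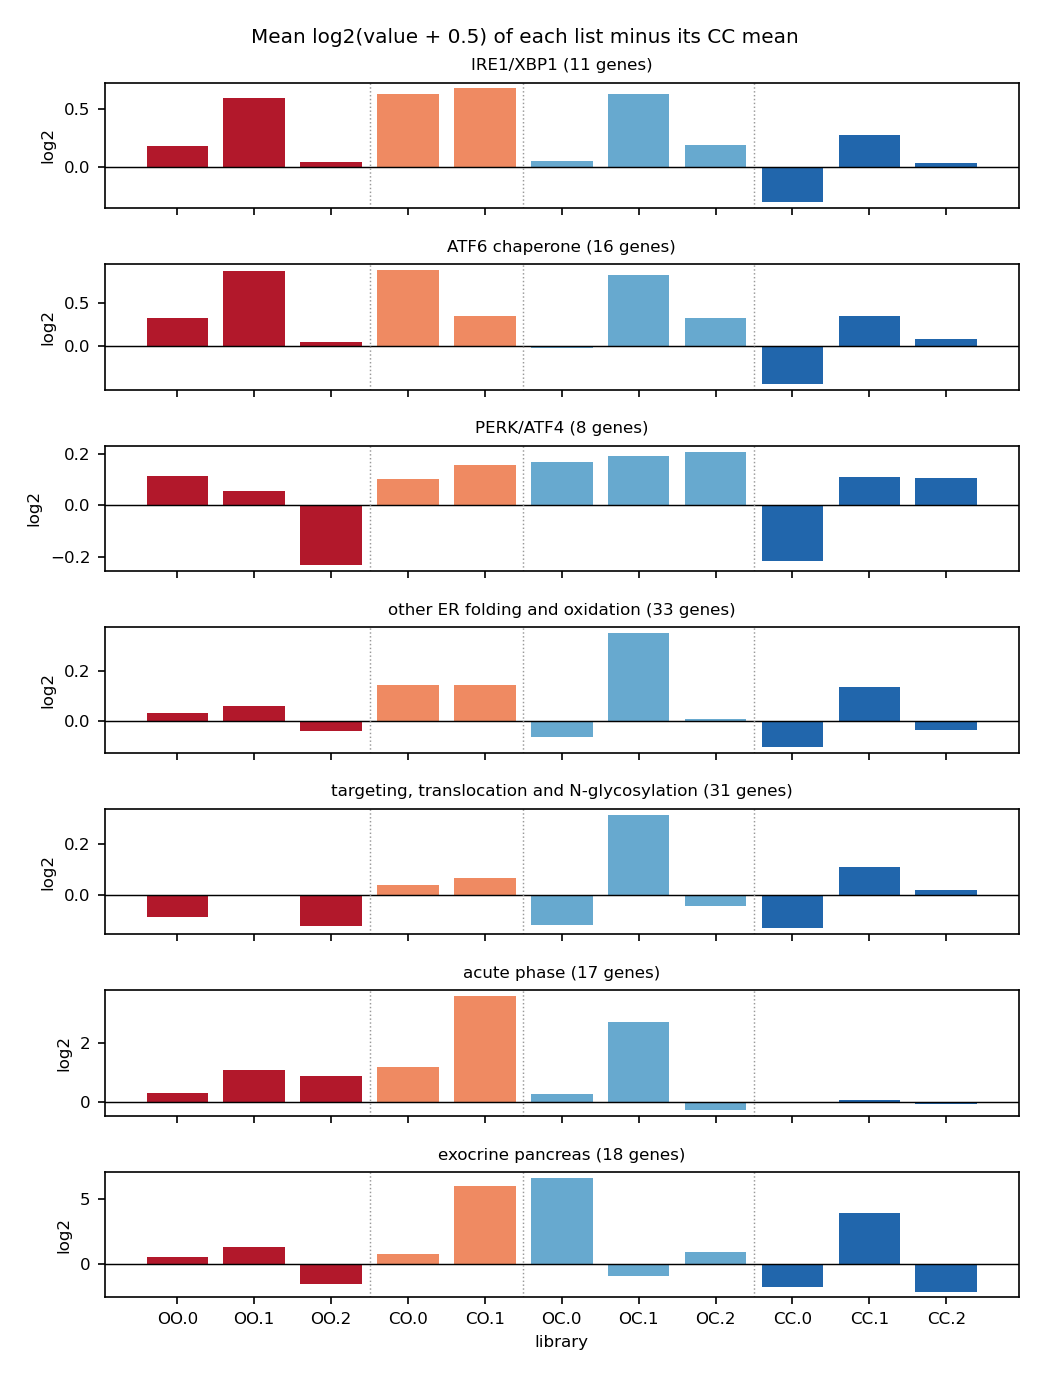
Bars give, for each of the 11 libraries, the mean log2(value + 0.5) of a gene list minus its mean in CC, with the number of genes in each panel title and its own axis scale. The 4 highest IRE1/XBP1 levels are those of CO.1, OC.1, CO.0 and OO.1 and the 3 highest ATF6 levels those of CO.0, OO.1 and OC.1, and the acute phase level is high in CO.1 and OC.1 but the pancreas level in CO.1 and OC.0.

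The libraries with the highest acute phase levels were CO.1 (3.59), OC.1 (2.71), CO.0 (1.2) and OO.1 (1.1). They also had the highest IRE1/XBP1 levels, in the same order (0.68, 0.64, 0.63 and 0.60). Their ATF6 levels, 0.35, 0.82, 0.88 and 0.86 in that order, were the highest as well, with CO.1 level with CC.1. Among them the order by ATF6 level differed from that by acute phase level. Below them the levels did not keep this order. OO.2 had the next acute phase level, 0.88, with IRE1/XBP1 and ATF6 levels of only 0.05 and 0.05. CC.1, with an acute phase level of 0.07, had 0.28 and 0.35. OC.0 and CO.1, with pancreas levels of 6.66 and 6.03, had ATF6 levels of -0.02 and 0.35. The macrophage and Kupffer cell level was high or low in several of the same libraries as the ATF6 level. It was 0.54 in OO.1, 0.36 in CO.0 and 0.62 in OC.1, the highest of all 11 libraries, and -0.25 in CC.0, the lowest, beside ATF6 levels of 0.86, 0.88, 0.82 and -0.43. It was also high in OO.0, at 0.53, where the ATF6 level was 0.33. The part of these marker lists in the ATF6 and IRE1/XBP1 levels was not tested.

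Genes of the wider ER and stress machinery outside the 36 gave few calls. Of 27 other ERAD genes, 33 other ER folding and oxidation genes and 31 genes of targeting, translocation and N-glycosylation, 0 were called by limma in any of the 7 comparisons, and their medians in CO against CC were 0.02, 0.08 and 0.03. At an unadjusted p, the same lists gave 3, 3 and 0 genes there, against 16.8% of all genes. The nearest in the average offspring diet effect were the ERAD ligase gene Rnf139 (-0.31, adjusted p 0.071), the disulfide-forming oxidase gene Qsox1 (0.43, adjusted p 0.166) and Dad1, a subunit of the oligosaccharyltransferase (-0.16, adjusted p 0.438), by limma. Qsox1 stood at 424, 422 and 428 in OO, 539 and 714 in CO, 319.5, 614 and 341 in OC and 338, 371 and 364 in CC. It was high in the acute phase libraries CO.1 and OC.1. Among 30 ER to Golgi transport genes 1 was called in the average offspring diet effect, with 3.96% of all genes called. This gene, Bet1, a vesicle fusion protein gene, fell by 0.40 (SE 0.10, adjusted p 0.0422, limma), and with single libraries left out it was called in 2 of 11 fits.

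Targets and partners of PERK and ATF4 outside the 36 also moved in both directions. Of 27 other ATF4 and amino acid response genes, 2 were called in the average offspring diet effect, against 3.96% of all genes. Cth, cystathionine gamma-lyase, which makes cysteine, stood at 293, 195 and 402 in OO, 350.0 and 179 in CO, 683, 600.4 and 415 in OC and 1013, 637 and 781 in CC. All libraries of obesogenic-fed offspring lay below all those of control-fed offspring, and Cth fell in the average offspring diet effect by 1.31 (SE 0.23, adjusted p 0.0111) and in CO against CC by 1.67 (SE 0.35, adjusted p 0.0411, limma). With single libraries left out, the average was called in 11 of 11 fits and CO against CC in 6 (not without CC.0, CC.2, CO.1, OC.1 or OO.0). Cebpb, a partner of ATF4 that also takes part in the acute phase response, rose in the average by 0.52 (SE 0.13, adjusted p 0.0433, limma), and was called in 4 of the 11 fits. Of 13 genes of eIF2 and its other kinases 1 was called. Eif2ak2 (PKR), a kinase of eIF2α that interferon induces, rose in the average by 0.62 (SE 0.11, adjusted p 0.0118, limma), and was called in 11 of 11 such fits. It stood at 51.5, 34 and 43.8 in OO, 44.7 and 43.2 in CO, 25.6, 27.4 and 30.4 in OC and 25.8, 31.4 and 27.6 in CC, with no overlap between the offspring diets.

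Of 9 mRNAs known as substrates of IRE1-dependent decay 1 was called, against 3.96% of all genes. Hgsnat, a lysosomal acetyltransferase gene, fell in the average by 0.47 (SE 0.09, adjusted p 0.016, limma), and was called in 11 of 11 fits with single libraries left out. The median of the list was 0.10. Bloc1s1, the substrate used most often as a marker of that decay, was not called. Of 10 genes listed here as CREBH targets, 6 were higher and 4 lower in the average offspring diet effect, with a median of 0.32. Whether CREBH acts on each of them was not tested. Limma called 3 of them, all lower, against 3.96% of all genes, and at an unadjusted p 3 were higher and 3 lower. The 3 higher ones were Apoa4 (1.26), Apoc2 (0.34) and Crp (0.30), with adjusted p-values in limma of 0.151, 0.176 and 0.144, and Creb3l3 itself had 0.11. Hamp, the iron hormone hepcidin, fell by 2.47 (SE 0.26, adjusted p 0.000806), Apoa5, an apolipoprotein that promotes triglyceride clearance, by 0.50 (SE 0.11, adjusted p 0.028) and the clock gene Arntl (Bmal1) by 1.37 (SE 0.34, adjusted p 0.0449), all by limma. With single libraries left out Hamp was called in 11 of 11 fits, and Apoa5 and Arntl in 4 each. Hamp stood at 31.2, 106 and 98.7 in OO, 58.7 and 62.9 in CO, 279 to 306 in OC and 416 to 466 in CC, so that the groups of the 2 offspring diets lay wholly apart.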

How the data were processed

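Liver RNA of 11 libraries was analysed from 1 table of gene values, a signal that the authors deposited under the name CPM and that behaves as gene counts divided by 1 factor per library. Reads were aligned with Bowtie 1.2.3 to mm8, per the submitters' processing notes, and for the counter, annotation, strand setting and scaling the sources used here give nothing. Within each library the value of 1 read divided 95.728% to 97.342% of values into whole numbers (tolerance 0.01), which gave the depth. The labels list 12 samples, and 0 other value columns were left unused. Column names give the group only. The 36 genes and all lists were chosen with earlier results of these data known.

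The test was limma 3.58.1 (R 4.3.3) with an intensity trend on log2(value + 0.5), 1 mean per group over all 11 libraries (7 residual and 4.66 prior degrees of freedom), with Benjamini-Hochberg adjustment over 12086 genes at 0.05. The design had assumed 12 samples. A gene needed a value of 1 in 3 libraries, which all 36 and all 12086 passed. Differences are on that log2 scale and understate those of low genes. The scripts were tested on simulated data. Genes were named as follows: all called members and the branch heads Xbp1, Ern1, Atf6, Eif2ak3, Atf4, Creb3l3, Hspa5 and Ddit3 with every library, and from other lists those called or, failing that, those with the smallest p in the average offspring diet effect. Derl3, Pdia4, Calr, Asns, Trib3 and the other members with values were picked after these were seen, as was Bloc1s1.

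Alternatives were edgeR 4.0.16, DESeq2 1.42.0 and limma's voom on the rounded recovered reads, a minimum value of 5 or no filter, other pseudocounts (0.1 and 2), other scaling (quantile, median of ratios), a robust variance, only the groups compared, the pancreas level as covariate, leaving out each library, and leaving out OC.0 with CO.1 (pancreas) or OC.1 with CO.1 (acute phase). Promoters are from RefSeq (GRCm38.p6), another build than that of the alignment, so their coordinates are not those of the counts. Exons of 6 members (Ddit3, Derl2, Hsp90b1, Manf, Pdia3 and Syvn1) overlap another gene of the table in GENCODE M21, and their values are uncertain.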

Additional observations from a re-analysis of the deposited data

How the results depend on the processing

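Among the called genes, those of the 36 and the 8 of the pathway lists outside them, no direction was reversed by any alternative run. The alternatives for genes outside the 36 were added after the data were seen. In CO against CC the count of called genes, 1 with limma, was 2 with a pseudocount of 2 and 2 with a robust variance (both add Chac1), 4 with DESeq2, 0 without OC.0 and CO.1, 0 without OC.1 and CO.1, and 0 to 1 when single libraries were left out (0 without CC.0, CC.2 or CO.1). The average offspring diet effect called 2 genes with limma, 1 at a minimum value of 5, which leaves 34 of the 36 genes and removes Chac1, 0 without OC.0 and CO.1, 1 without OC.1 and CO.1, and 1 to 4 when single libraries were left out (1 without CO.1, 4 without OC.1, which adds Calr and Derl3). OO against CO called 0 genes with limma and 1 with DESeq2 (Xbp1). The cause of these changes was not tested, except that fewer libraries or genes entered some fits. Leaving out single libraries left the counts of the other comparisons at 0. Xbp1 in the average effect was called in 23 of 24 alternatives (adjusted p 2.01e-05 to 0.0761) and in CO against CC in 20 of 25 (1.91e-06 to 0.0884). Chac1 in the average effect was called in 20 of 23 (6.46e-05 to 0.134). Over all alternatives, 678 list medians moved by less than their spread and 10 by more. Of the 10, the PERK/ATF4 median in CO against CC was -0.13 and in the average effect -0.25 at a minimum value of 5. The spread was the within-group SD of the list's mean level, a wide bound at 0.406 for the ATF6 branch. Many of the 678 could not move. A library left out of a group not compared, a robust variance or no filter leaves the differences unchanged. Without CO replicate 1 the lone CO library is assumed to vary like those of other groups. No filter gave the same fit, since all genes passed. No paired analysis was possible because the numbers in the column names pair no animals. Low counts limit Derl3, Atf3, Ddit3, Chac1, Trib3 and Asns, down to 1 read a library.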
